A study of Astyanax mexicanus with 36 samples.

Results

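Oocytes of Pachón cavefish in the 40_100um size category were compared with those in the 40um category. The comparison rests on 6 of the 36 libraries of a study of oocyte growth in the Mexican tetra, Astyanax mexicanus, chosen by population and size as the labels give them, with 3 libraries per size. Pachón is a blind cave population of this fish. All 6 libraries hold total RNA of untreated wild-type Pachón fish about 520 days old, from oocytes of right-side ovaries, and the groups differ in the size category and in the series of library numbers. The labels do not say whether 40um is a bound or a midpoint, and each size carries library numbers of its own series, so size and library series cannot be told apart. Surface fish and Molino, a second cave population, had the same 2 sizes with 3 libraries each, from fish of the same age, genotype label and treatment label, and serve here to show where the Pachón difference departs from theirs. Whether the 3 libraries of a group stem from different animals is not stated, and p-values therefore cover only the spread among libraries, which may be technical.

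A fish oocyte enters meiosis, arrests in its first prophase and then grows for a long time inside a follicle. Granulosa cells wrap the oocyte and answer to follicle-stimulating hormone, theca cells outside them make steroid precursors, and vessels, connective tissue and immune cells surround the follicle. The growing oocyte makes growth factors that act on the follicle, builds an egg coat of zona pellucida proteins, takes up yolk, and stores RNAs and proteins for replication, division and translation in the early embryo. Primary growth precedes the stage at which yolk is taken up in bulk.

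Levels are in CPM, read counts relative to the size of the library, scaled by the trimmed mean of M-values (TMM) over the 18 libraries of both sizes in the 3 populations, and are given in the order of replicates 1, 2 and 3. A change is a log2 fold change, 40_100um over 40um, and keeps its sign throughout, so that a fall is given as a negative value. The standard error (SE) beside a change or a difference between steps was worked back from the test, as described under processing. Each adjusted p comes from edgeR's quasi-likelihood test over all tested genes with Benjamini-Hochberg adjustment, and "rose" and "fell" are used for an adjusted p under 0.05. Reads assigned to genes numbered 4.79, 2.99 and 3.49 M at 40um and 8.72, 5.95 and 6.56 M at 40_100um. The scaled library sizes behind the levels ran from 2430008 (40um replicate 2) to 8046694 (40_100um replicate 1), so a level of 1 CPM stood on few reads. Multimapping reads made up 23.1 to 29.5% of the 40um libraries and 8.61 to 10.4% of the 40_100um libraries, and reads in no annotated gene 26.9 to 34.9% and 15.1 to 16.0%. The part of these differences in the results was not tested.

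The labelled cell type was checked against marker genes of the oocyte and of the cells around it. The 6 oocyte markers gdf9, bmp15, figla, zar1, npm2b and ddx4 were detected in both sizes, with a sum of 5109, 1858 and 1254 CPM at 40um and 4078, 3148 and 3204 CPM at 40_100um. Replicate 1 held the highest sum at 40um and also lay above every 40_100um library. Most of its sum came from zar1 and npm2b, and the same held for its levels of zar1, npm2b and figla taken singly. For gdf9, bmp15 and ddx4 it lay below every 40_100um library. Granulosa markers, 5 of 5 matched, summed to 177, 381 and 312 CPM at 40um and 9.69, 11.9 and 11.9 CPM at 40_100um, and theca and steroid cell markers, 2 of 4 matched, to 65, 271 and 132 CPM at 40um and 3.98, 2.16 and 3.63 CPM at 40_100um. Markers of macrophages and granulocytes, 12 genes for 8 names, summed to 87, 158 and 905 CPM at 40um and 6.34, 3.82 and 8.13 CPM at 40_100um, with both mpx copies and c1qb at 0 in all 3 larger-size libraries. Stroma and smooth muscle markers, 7 genes for 6 names, summed to 299, 827 and 1145 CPM at 40um and 56.3, 57.2 and 81 CPM at 40_100um. Erythrocyte markers, 3 of 5 matched, summed to 93.7, 40.7 and 64.8 CPM at 40um and 14.3, 6.64 and 9.15 CPM at 40_100um, endothelial markers, 4 of 5 matched, to 46.9, 27.6 and 72.7 CPM at 40um and 13.3, 9.29 and 18.4 CPM at 40_100um, and lymphocyte markers, 4 of 6 matched, to 6.25, 3.29 and 7.55 CPM at 40um and 1.37, 1.16 and 1.31 CPM at 40_100um. The 40um libraries thus carried RNA of follicle, blood and connective tissue beside that of the oocyte, each of these 7 sums was higher in every 40um library than in every 40_100um library, and Pachón 40um replicate 3 stood apart in its macrophage and granulocyte markers. In bulk RNA, fewer cells of a type and less RNA per cell cannot be told apart. These marker differences lie between the same libraries as every Pachón comparison below, and their part in those results was not tested.

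Of 17539 tested genes 3980 rose (22.7%) and 5287 fell (30.1%), or 52.8% in all. The 3 libraries of one size did not overlap the 3 of the other in 28.7% of genes with the higher levels at 40_100um and in 32.5% with the higher levels at 40um. The median change of all genes was -0.10, which became -0.36 with DESeq2's size factors and 0.0039 with library totals. Without Pachón 40um replicate 3, 3045 genes rose and 4193 fell. The shares of each gene list below are to be read against 22.7% and 30.1%. For each of the 8 counts of 0 among the lists, edgeR at an unadjusted p under 0.05 and DESeq2 at an adjusted p under 0.05 also gave 0.

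**Figure D1:**
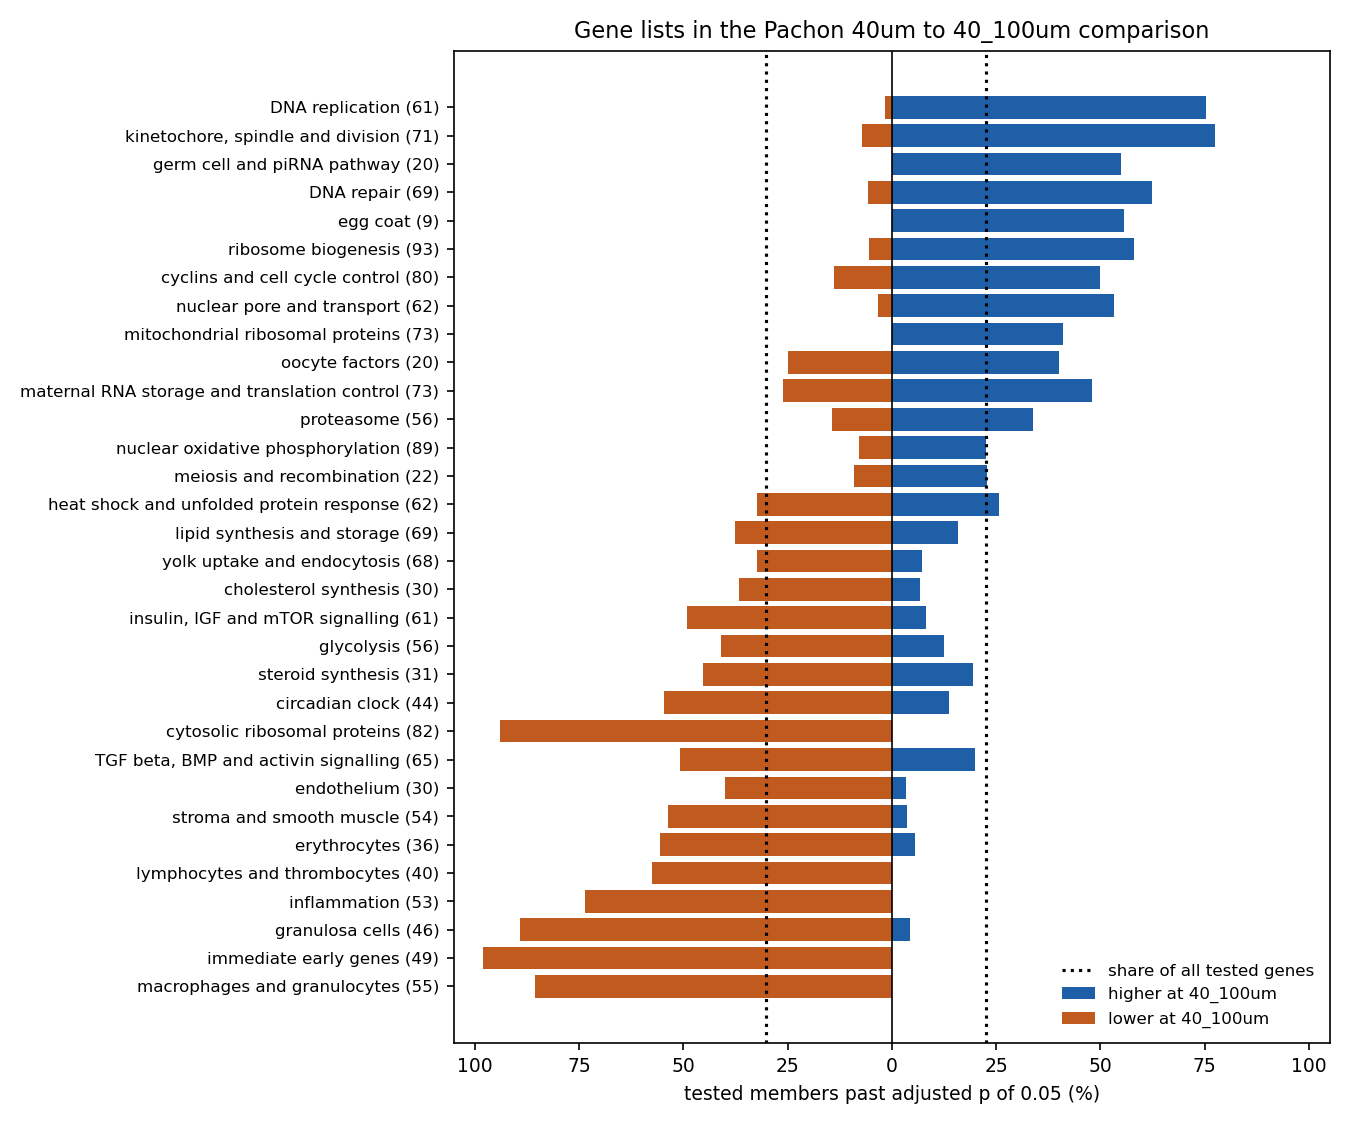
Share of the tested members of each gene list (number of tested members in brackets) past an adjusted p of 0.05 in Pachón, higher at 40_100um to the right in blue and lower to the left in orange, in percent. Dotted lines mark the shares of all tested genes, 22.7% higher and 30.1% lower; replication, division and repair genes reach furthest to the right, and immediate early, ribosomal protein, granulosa and myeloid genes furthest to the left.

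Growth factors that the oocyte secretes were higher at 40_100um. The gene gdf9, whose product acts on granulosa cells, stood at 11.9, 7.41 and 3.15 CPM at 40um and 55.8, 46.6 and 56.6 CPM at 40_100um. Its partner bmp15 stood at 20.6, 10.7 and 2.83 CPM at 40um and 61.6, 66.2 and 65.9 CPM at 40_100um. Neither gene overlapped between the sizes, and the larger-size libraries lay within a narrow band while replicate 1 led the smaller ones. The change was 2.80 (SE 0.38, adjusted p = 4.98e-05) for gdf9 and 2.48 (SE 0.51, adjusted p = 0.000839) for bmp15. The organiser of the Balbiani body, buc, rose by 2.2 (SE 0.49, adjusted p = 0.00148) from 388, 232 and 78.7 CPM at 40um and 946, 1339 and 917 CPM at 40_100um. Every larger-size library lay above every smaller one for this gene too. The ubiquitin ligase trim36 rose by 2.55 (adjusted p = 0.000306).

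Several classical oocyte factors did not pass the test. The egg-to-embryo factor zar1 stood at 3586, 1298 and 931 CPM at 40um and 2368, 1771 and 1733 CPM at 40_100um, and the chromatin chaperone npm2b at 1239, 379.8 and 247 CPM at 40um and 749.5, 423 and 521 CPM at 40_100um. In both, replicate 1 at 40um exceeded every larger-size library while replicates 2 and 3 lay under all of them, so the groups overlapped. Their changes were 0.014 (adjusted p = 0.988) and -0.14 (adjusted p = 0.859). The transcription factor figla, which switches on egg coat genes, stood at 18.5, 9.05 and 6.92 CPM at 40um and 8.95, 4.15 and 6.68 CPM at 40_100um with a change of -0.81 (adjusted p = 0.208). Over the 20 tested of 22 oocyte factor genes in the table, 8 rose and 5 fell (median 0.74), and 5 rose with DESeq2's size factors or Wald test, with the 6 Pachón libraries alone or without Pachón 40_100um replicate 1 or 3. The members that fell included the transcription factor foxo3b (-5.06) and the phosphodiesterases PDE3A (-3.71) and PDE3B (-1.73), which the follicle and other tissues also express. The granulosa gene foxl2a was in the table but was not tested.

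Egg coat genes and genes of the germline rose in part. Summed over the 9 tested egg coat genes, levels were 11860, 6450 and 3700 CPM at 40um and 11850, 11209 and 9371 CPM at 40_100um. These sums overlapped between the sizes, with 40um replicate 1 the highest. Of 9 tested egg coat genes 5 rose and none fell (median 1.1), 2 without Pachón 40um replicate 3 and 3 with DESeq2's size factors or without 40um replicate 2 or 40_100um replicate 1 or 2. The coat gene zp3f.2 rose by 1.98 (SE 0.41, adjusted p = 0.000914) from 152, 61.7 and 42.2 CPM at 40um and 355, 341 and 314 CPM at 40_100um. Its groups did not overlap, whereas zp2l1 overlapped at 3113, 1008 and 831 CPM at 40um and 1549, 988 and 1103 CPM at 40_100um with a change of -0.44 (adjusted p = 0.562). The germline RNA helicase ddx4 stood at 233, 153 and 62.6 CPM at 40um and 834, 838 and 821 CPM at 40_100um. All larger-size libraries lay within a few percent of each other and above the smaller ones, a change of 2.47 (SE 0.45, adjusted p = 0.000339).

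The piRNA pathway silences transposons in germ cells. Of 20 tested germ cell and piRNA genes 11 rose (55%) and none fell (median 1.26), or 1 fell without the expression filter. Among genes with Tudor domains, many of which serve the granules where piRNAs are made, 6 of 8 rose. These genes were led by tdrd3 (3.05) and by tdrd1, which rose by 2.13 (SE 0.41, adjusted p = 0.000527) from 107, 78.2 and 43.4 CPM at 40um and 313, 376 and 314 CPM at 40_100um. Its sizes did not overlap. The helicase ddx43 rose by 2.54 (adjusted p = 0.000528).

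Meiotic genes did not share one direction. Of 22 tested genes 5 rose (22.7%), the same share as of all genes, and 2 fell (9.09%), against 30.1% of all genes (median 0.30). The number that rose was 3 with DESeq2's size factors or without any 1 of 4 Pachón libraries, 40_100um replicates 1 and 3 and 40um replicates 2 and 3. The number that fell was 1 without Pachón replicate 2 of either size, without the expression filter, with the 6 Pachón libraries alone or with all 36 libraries. The histone methyltransferase prdm9, which marks sites of recombination in mammals, rose by 2.49 (SE 0.36, adjusted p = 6.93e-05) from 35.6, 32.1 and 16.4 CPM at 40um and 166, 151 and 155 CPM at 40_100um. Its larger-size libraries all lay above its smaller ones. The break-forming partner mei4 rose by 2.28 (adjusted p = 0.000471) and fignl1 by 2.36 (adjusted p = 0.00101), while the RNA-binding meiotic regulator YTHDC2 fell by -1.26 (adjusted p = 0.00194). The chromosome axis gene sycp3 stood at 4.37, 0.823 and 0 CPM at 40um and 1.24, 0.166 and 0.871 CPM at 40_100um, with overlapping groups and a change of -1.25 (adjusted p = 0.379). The recombinase dmc1 had 2 reads in all at 40_100um and was 6.04-fold lower there, with a 95% counting interval of 1.08 to 61.2, and was not called (adjusted p = 0.112).

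**Figure D2:**
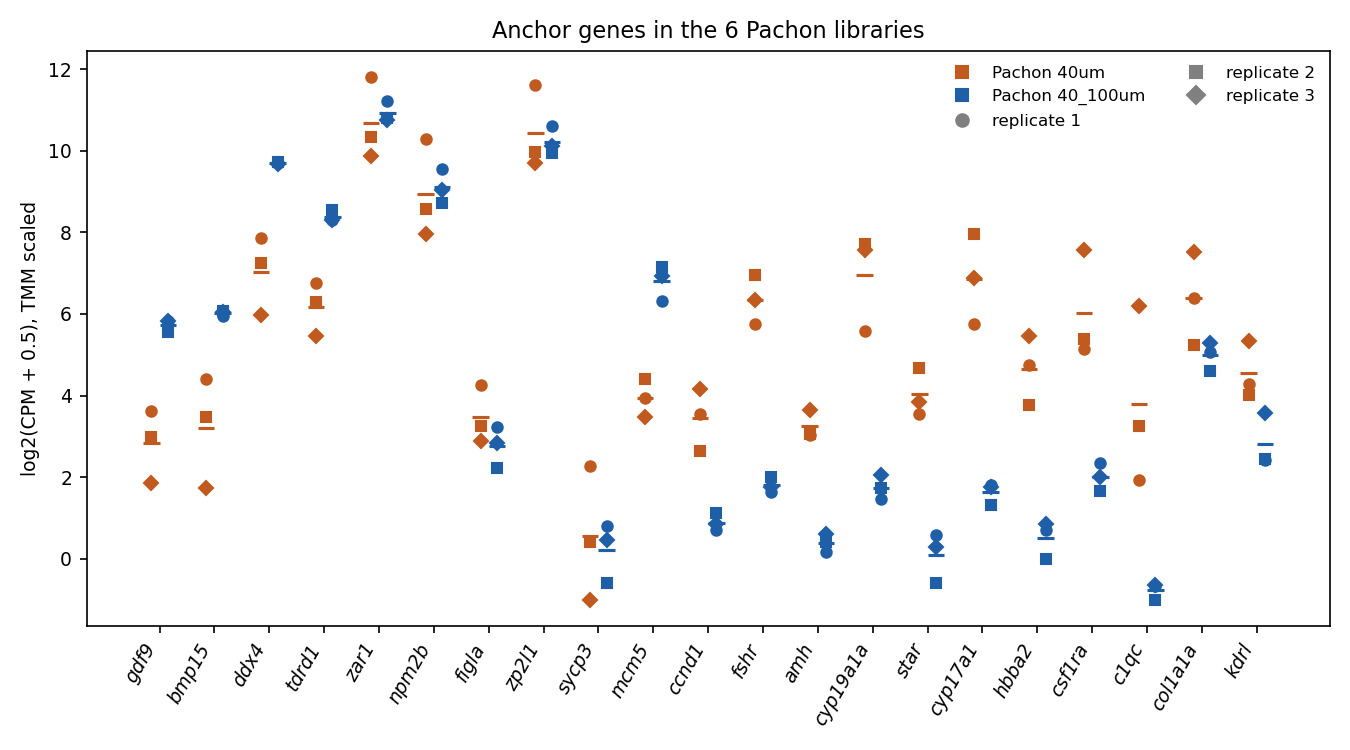
Levels of 21 anchor genes in the 6 Pachón libraries as log2(CPM + 0.5), 40um in orange and 40_100um in blue, with a symbol for each replicate and a short line at the mean of the 3. The oocyte and germline genes gdf9, bmp15, ddx4 and tdrd1 lie higher at 40_100um, zar1, npm2b, figla and zp2l1 overlap, and the follicle and blood genes from fshr to c1qc lie lower; replicate 1 leads the 40um libraries for zar1 and npm2b.

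Stored RNAs are kept silent and are later activated or destroyed by RNA-binding proteins. Of 73 tested genes for RNA storage and translation control 35 rose (47.9%) and 19 fell (26.0%), with 22 higher without Pachón 40um replicate 3 and 23 without 40_100um replicate 1 (median 0.68). The RNA stabiliser igf2bp1 rose by 2.80 (SE 0.36, adjusted p = 3.71e-05) from 15.2, 9.88 and 5.67 CPM at 40um and 63.5, 70.7 and 82.3 CPM at 40_100um. No 40um library reached a 40_100um library. The granule protein caprin2 rose by 2.45 (adjusted p = 0.000437) and the poly(A) ribonuclease parn by 2.04 (adjusted p = 0.000918). In the CCR4-NOT complex, which removes poly(A) tails, 8 of 10 tested genes rose, among them cnot3b (2.09), and 2 fell, cnot6l (-3.01) and cnot3a (-1.0), or 1 without Pachón 40_100um replicate 2. Of 6 tested cytoplasmic polyadenylation factors of the CPEB family 1 rose and 3 fell. The number that rose was 0 without Pachón 40_100um replicate 1 and 2 without surface 40um replicate 1. CPEB2 at -4.87 and CPEB4 at -2.61 were lower, and the oocyte form cpeb1b at 0.99 was not called (adjusted p = 0.0618). All 4 tested ZFP36-type genes, whose proteins destabilise RNAs with AU-rich elements, fell, zfp36l1b by -4.71 (adjusted p = 9.4e-05).

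Genes for DNA replication formed the list with the highest median change. Of 61 tested genes 46 rose (75.4%) and 1 fell (median 1.57), and 2 fell with DESeq2's size factors, with the replicate numbers as a block or without Pachón 40_100um replicate 2, and 3 with DESeq2's Wald test. The helicase subunit mcm5 stood at 14.8, 20.6 and 10.7 CPM at 40um and 79.7, 142 and 122 CPM at 40_100um. All larger-size libraries lay well above the smaller ones, a change of 2.90 (SE 0.46, adjusted p = 0.000137). The catalytic subunit of DNA polymerase epsilon, pole, rose by 3.40 (SE 0.39, adjusted p = 2.38e-05) from 34.4, 29.6 and 17.6 CPM at 40um and 249.5, 327 and 288 CPM at 40_100um, again without overlap. The nuclease DNA2 rose by 2.97 (adjusted p = 8.32e-05) and the primase subunit prim2 by 2.88 (adjusted p = 5.99e-05). The 6 MCM helicase subunits did not move as one: mcm5 and mcm2 (2.25) rose, mcm4 (0.96) and mcm7 (0.88) were not called, and mcm3 (-0.84) and mcm6 (-1.09) had negative changes that were not called. Without Pachón 40um replicate 1 the MCM genes that rose were 4. Of 5 tested origin recognition subunits 4 rose, with orc1 highest at 2.25. The member that fell was rrm2b, a ribonucleotide reductase subunit, at -2.34 (SE 0.55, adjusted p = 0.00215), and its change was -1.51 without Pachón 40um replicate 3. The sliding clamp pcna changed by 1.06 (SE 0.38, adjusted p = 0.0269), a call lost without any 1 of 4 Pachón libraries, all 3 at 40um and replicate 1 at 40_100um, with an adjusted p of up to 0.122.

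Genes of chromosome segregation showed the same direction. Of 71 tested kinetochore, spindle and division genes 55 rose (77.5%) and 5 fell (median 1.55). The kinetochore motor cenpe stood at 120.4, 95.5 and 56.3 CPM at 40um and 921, 1260.3 and 1135 CPM at 40_100um. The larger-size libraries were all well above the smaller, a change of 3.61 (SE 0.40, adjusted p = 2.38e-05). The spindle motor KIF15 rose by 3.01 (adjusted p = 9.67e-05) and the checkpoint adaptor zwilch by 2.72 (adjusted p = 9.33e-05). All 4 subunits of the NDC80 complex, which ties kinetochores to microtubules, rose, with nuf2 at 2.86 and spc24 at 1.54. All 8 tested condensin genes rose, from 1.00 for ncaph2 to 2.69 for smc4, with 4 past the test without Pachón 40_100um replicate 1. Core cohesin genes split, STAG1 (2.26), smc3 (1.19) and rad21a (1.00) higher and rad21b (-4.87), STAG2 (-1.55) and stag2a (-1.28) lower. Among the genes that fell was top2b (-4.27 (adjusted p = 5.38e-05)), a topoisomerase also active outside division, from 20.6, 68.7 and 80.9 CPM at 40um and 2.86, 1.49 and 4.36 CPM at 40_100um. Its 40um libraries all lay above the others.

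Of 80 tested cell cycle control genes 40 rose (50%) and 11 fell (13.8%; median 0.89). The inhibitor of the anaphase-promoting complex fbxo5 rose by 2.7 (SE 0.38, adjusted p = 6.11e-05) from 71, 58.4 and 32.1 CPM at 40um and 354, 363 and 334 CPM at 40_100um. The groups did not overlap. The mitotic cyclin ccnb3 rose by 2.36 (adjusted p = 0.000223), the anaphase-promoting complex subunit cdc16 by 2.59 (adjusted p = 2.91e-05) and the transcription factor mybl2b by 2.71 (adjusted p = 0.000143). The growth-phase cyclin ccnd1 stood at 11.2, 5.76 and 17.3 CPM at 40um and 1.12, 1.66 and 1.31 CPM at 40_100um, a change of -3.07 (SE 0.54, adjusted p = 0.000268). Its partner cdk6 fell by -5.16 (adjusted p = 0.000107) and the inhibitor cdkn1ba by -4.57 (adjusted p = 6.3e-05).

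Of 69 tested DNA repair genes 43 rose (62.3%) and 4 fell (median 1.14), with 28 higher without Pachón 40um replicate 3. The end-joining polymerase POLQ rose by 3.42 (SE 0.34, adjusted p = 2.13e-05) from 9.99, 3.7 and 6.29 CPM at 40um and 59, 81.4 and 80.00 CPM at 40_100um. The lowest larger-size library was several times the highest smaller one. The Fanconi anaemia gene fance rose by 2.87 (adjusted p = 0.000168), the break-repair regulator rif1 by 2.39 (adjusted p = 3.96e-05) and brca2, a gene of homologous recombination, by 2.37 (adjusted p = 0.000157). The poly(ADP-ribose) polymerase parp3 fell by -2.27 (adjusted p = 0.00147). The count of 4 genes lower was 1 without Pachón 40_100um replicate 3 or 40um replicate 2 and 2 without 40_100um replicate 1 or 2, 40um replicate 3 or Molino 40um replicate 2. It was 1 without the expression filter and 2 with library totals.

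Genes of the follicle wall made up the opposite side. Of 46 tested granulosa genes 41 fell (89.1%) and 2 rose (median -4.48, or -4.25 with the gene at 0 reads set at its bound). The receptor for follicle-stimulating hormone, fshr, stood at 53.5, 123 and 80.3 CPM at 40um and 2.61, 3.48 and 2.9 CPM at 40_100um. All 40um libraries were more than an order of magnitude above every 40_100um library, a change of -4.83 (SE 0.69, adjusted p = 6.84e-05). The receptor for luteinising hormone, lhcgr, fell by -5.88 (SE 0.91, adjusted p = 0.00011) from 115, 425 and 444 CPM at 40um and 5.22, 7.96 and 3.48 CPM at 40_100um. The transcription factors foxl2b (-6.07 (adjusted p = 0.000686)) and gata6 (-5.89 (adjusted p = 0.000422)), and amh (-3.45 (adjusted p = 0.000524)), a hormone of the TGF beta family, fell as well. The 2 members that rose were cyp26a1, which breaks down retinoic acid, by 3.2 (SE 0.42, adjusted p = 4.31e-05) from 33.7, 41.6 and 17.6 CPM at 40um and 226, 327 and 302 CPM at 40_100um, and the chromatin protein hmgn6 by 1.07 (adjusted p = 0.00088). All 3 tested estrogen receptor genes fell, esr1 (-5.23), esr2a (-4.55) and esr2b (-4.46). The summed granulosa markers, 177, 381 and 312 CPM at 40um and 9.69, 11.9 and 11.9 CPM at 40_100um, include fshr and amh. Their fall is therefore not separate from that of the genes described here.

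Of 31 tested steroid synthesis genes 14 fell (45.2%), against 30.1% of all genes, and 6 rose (19.4%), against 22.7% (median -1.10), and 3 rose with DESeq2's size factors or without Pachón 40_100um replicate 3. The aromatase cyp19a1a, which makes estradiol, stood at 47.7, 209 and 190.1 CPM at 40um and 2.24, 2.82 and 3.63 CPM at 40_100um. Replicate 1 was the lowest 40um library for this gene and still lay far above all 40_100um libraries, a change of -5.68 (SE 1.24, adjusted p = 0.00132). The gene cyp17a1, which makes androgen precursors, fell by -5.71 (adjusted p = 0.000116), the cholesterol carrier star by -4.64 (adjusted p = 0.000694), and hsd11b2, of 11-oxygenated steroid metabolism, by -6.23 (adjusted p = 6.35e-05). Higher were hsd17b12a, which also serves fatty acid elongation, by 2.14 (SE 0.41, adjusted p = 0.000495) from 158, 172 and 61.1 CPM at 40um and 571, 647 and 506 CPM at 40_100um, and the lipoprotein receptor scarb1 by 1.09 (adjusted p = 0.0107).

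Signals of the TGF beta family pass between oocyte and follicle. Of 65 tested genes 33 fell (50.8%) and 13 rose (20%; median -2.00). Of the ligand genes, gdf9 and bmp15 rose, as described, and gdf3 rose by 2.00 (adjusted p = 0.000941), while all 4 tested inhibin and activin subunit genes fell. The alpha subunit inha fell by -5.28 (SE 0.98, adjusted p = 0.000409) from 77.7, 269 and 238 CPM at 40um and 3.11, 6.47 and 5.52 CPM at 40_100um, and inhbaa by -5.08 (adjusted p = 0.000251). For inha the groups were far apart. The activin receptor ACVR2B rose by 2.36 (SE 0.24, adjusted p = 2.13e-05) from 23.7, 24.7 and 21.7 CPM at 40um and 109, 125 and 126 CPM at 40_100um. Both groups of this gene were tight and did not overlap. The inhibitors of the pathway smad7 (-5.41 (adjusted p = 0.000109)) and skib (-5.34 (adjusted p = 0.000162)) fell.

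Blood and immune genes were among the largest falls. Of 55 tested macrophage and granulocyte genes 47 fell (85.5%) and none rose (median -4.84), with 36 lower without Pachón 40um replicate 3. The master regulator of the myeloid lineage spi1b stood at 24.2, 55.6 and 371 CPM at 40um and 0.249, 0.664 and 1.6 CPM at 40_100um. Replicate 3 was the highest of the 40um libraries by a wide margin, and all 3 lay above the 40_100um libraries, a change of -7.48 (SE 1.26, adjusted p = 0.000202). The receptor for macrophage growth factor csf1ra fell by -4.61 (SE 0.80, adjusted p = 0.000249) from 34.8, 41.2 and 189 CPM at 40um and 4.6, 2.65 and 3.48 CPM at 40_100um. The complement gene c1qc stood at 3.33, 9.05 and 73 CPM at 40um and 0.124, 0 and 0.145 CPM at 40_100um. It had 2 reads in all at 40_100um and was 272-fold lower there, with a 95% counting interval of 74.5 to 2256 that does not cover the spread between libraries. Replicate 3 led its 40um libraries, and its fitted change of -7.94 was -5.67 without it. Others were the actin bundler lcp1 (-8.10 (adjusted p = 0.000683)), the transcription factor cebpa (-7.05 (adjusted p = 0.000586)) and the pan-leukocyte phosphatase PTPRC (-6.67 (adjusted p = 0.000197)). The chemerin receptor cmklr1 fell by -6.79 (adjusted p = 0.00093), or by -4.02 without Pachón 40um replicate 3, and the pore-forming MPEG1, 1 of 2 copies tested, by -6.01 (adjusted p = 0.00109), or by -9.09 without Pachón 40_100um replicate 3.

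Of 40 tested lymphocyte and thrombocyte genes 23 fell (57.5%) and none rose (median -2.98), or 1 rose with the replicate numbers as a block. The chemokine receptor ccr9a stood at 48.5, 41.2 and 141 CPM at 40um and 0.373, 0.498 and 0.29 CPM at 40_100um, and cxcr4b at 129, 167 and 775 CPM at 40um and 2.86, 1.16 and 4.94 CPM at 40_100um. Neither gene overlapped between sizes, and both changes were large, -7.57 (SE 1.05, adjusted p = 5.65e-05) and -6.88 (SE 0.93, adjusted p = 5.09e-05). Of 36 tested erythrocyte genes 20 fell (55.6%) and 2 rose (median -2.70), 1 with DESeq2's size factors or Wald test, without the 50 most abundant genes or without any 1 of the 40_100um libraries of Pachón or its 40um replicate 2, and 4 with all 36 libraries or without surface 40um replicate 1 or 2. The haemoglobin gene hbba2 stood at 26.2, 13.2 and 43.4 CPM at 40um and 1.12, 0.498 and 1.31 CPM at 40_100um. Its 40um libraries all exceeded the others, a change of -4.78 (SE 0.70, adjusted p = 8.06e-05). Of 5 tested genes named HBE1, which are similar enough to share reads, 3 fell and 2 were not called. The membrane skeleton gene ank1a fell by -5.05 (adjusted p = 5.31e-05), and EPB41 rose by 1.34 (adjusted p = 0.00477).

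Of 30 tested endothelial genes 12 fell (40%) and 1 rose (median -2.05), with 20 lower with the replicate block and 7 without Pachón 40um replicate 3 or 40_100um replicate 2. The junction gene esama fell by -4.56 (SE 0.66, adjusted p = 7.66e-05) from 36.2, 68.3 and 81.2 CPM at 40um and 2.73, 2.16 and 2.9 CPM at 40_100um, without overlap. The vessel growth factor receptor kdrl stood at 18.9, 15.6 and 39.97 CPM at 40um and 4.85, 4.98 and 11.3 CPM at 40_100um. Its groups did not overlap, but its change of -1.82 (adjusted p = 0.0933) was not called, and it was with the replicate block (adjusted p = 0.00153). The member that rose was notch1a (2.93 (adjusted p = 0.00182)), a receptor also used outside vessels. Of 54 tested stroma and smooth muscle genes 29 fell (53.7%) and 2 rose (median -2.36), with 15 lower without Pachón 40um replicate 3, 18 without 40_100um replicate 1 and 17 without 40_100um replicate 2, and 1 higher without 40um replicate 3 or 40_100um replicate 1. The microfibril gene fbn2b fell by -5.46 (SE 0.90, adjusted p = 0.000176) from 253, 909 and 1177 CPM at 40um and 14.4, 19.2 and 19.3 CPM at 40_100um. All of its 40um libraries lay far above the others. The protease inhibitor timp2a (-5.39 (adjusted p = 0.00038)) and the actin-binding TAGLN (-5.38 (adjusted p = 0.000283)) fell too, and fbln1 rose by 1.5 (adjusted p = 0.00327). The groups overlapped for the collagen gene col1a1a, at 83.3, 37 and 184 CPM at 40um and 32.8, 23.7 and 38.6 CPM at 40_100um, and its change of -1.68 (adjusted p = 0.0311) was not past the threshold without Pachón 40um replicate 3 or any 40_100um library (adjusted p up to 0.242).

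Immediate early genes, which cells switch on within minutes of a stimulus and which are known to respond to tissue dissociation, were lower almost without exception. Of 49 tested genes 48 fell (98.0%) and none rose (median -4.79). The remaining gene, KLF2, had 3 reads in the 6 libraries. The orphan nuclear receptor nr4a2b stood at 37.1, 86.8 and 320.4 CPM at 40um and 0.249, 0.498 and 0.726 CPM at 40_100um. All 40um libraries were far above all 40_100um libraries, in which it was close to 0, a change of -8.20 (SE 1.02, adjusted p = 3.1e-05). All 4 NR4A, all 4 EGR and all 7 AP-1 genes tested fell, such as egr2b (-6.36 (adjusted p = 5.39e-05)), fosb (-4.95) and junba (-5.33). The phosphatase dusp4, which shuts off MAP kinases, fell by -5.82 (adjusted p = 0.000342) and the cytokine brake socs3a by -5.77 (SE 0.86, adjusted p = 8.98e-05) from 263, 368 and 493 CPM at 40um and 8.08, 4.81 and 7.55 CPM at 40_100um. Replicate 1 was the lowest 40um library for nr4a2b and socs3a.

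Of 53 tested inflammation genes 39 fell (73.6%) and none rose (median -3.26). The NF-kappaB inhibitor nfkbiaa stood at 378, 896 and 1008 CPM at 40um and 13.5, 14.3 and 15.1 CPM at 40_100um. Every 40um library was at least an order of magnitude higher, a change of -5.73 (SE 0.81, adjusted p = 6.47e-05). The NF-kappaB subunit rel fell by -5.50 (adjusted p = 4.31e-05) and the receptor tlr18 by -5.55 (adjusted p = 7.29e-05). The myeloid markers that moved with this list are given above.

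Translation genes showed opposite signs for the ribosome and for its assembly. Of 82 tested cytosolic ribosomal protein genes 77 fell (93.9%) and none rose (median -1.37), 48 of 52 in the large subunit and 27 of 28 in the small one. The gene rpl5a stood at 379.6, 1021 and 947 CPM at 40um and 184, 194 and 162 CPM at 40_100um. Replicate 1 was the lowest at 40um and still lay above every library at 40_100um, a change of -2.12 (SE 0.36, adjusted p = 0.000222). Small-subunit rps7 fell by -1.98 (adjusted p = 0.0002) and rpl34 by -1.96 (adjusted p = 0.00031). Of 93 tested ribosome biogenesis genes 54 rose (58.1%) and 5 fell (median 0.90), with 36 higher without Pachón 40um replicate 3. The RNA polymerase I subunits polr1c (2.85 (adjusted p = 2.91e-05)) and polr1b (2.22 (adjusted p = 4.2e-05)) rose, as did gtf3ab, which belongs to the TFIIIA family of 5S rRNA factors, by 2.29 (SE 0.44, adjusted p = 0.00052) from 105, 75.3 and 31.2 CPM at 40um and 399, 304 and 335 CPM at 40_100um. Its sizes did not overlap. Among the 5 that fell, the helicase ddx21 stood at 701, 1347 and 1058 CPM at 40um and 116, 70.8 and 75.1 CPM at 40_100um, a change of -3.57 (SE 0.37, adjusted p = 2.14e-05), and the polymerase I initiation factor RRN3 changed by -1.47 (adjusted p = 0.000359).

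**Figure D3:**
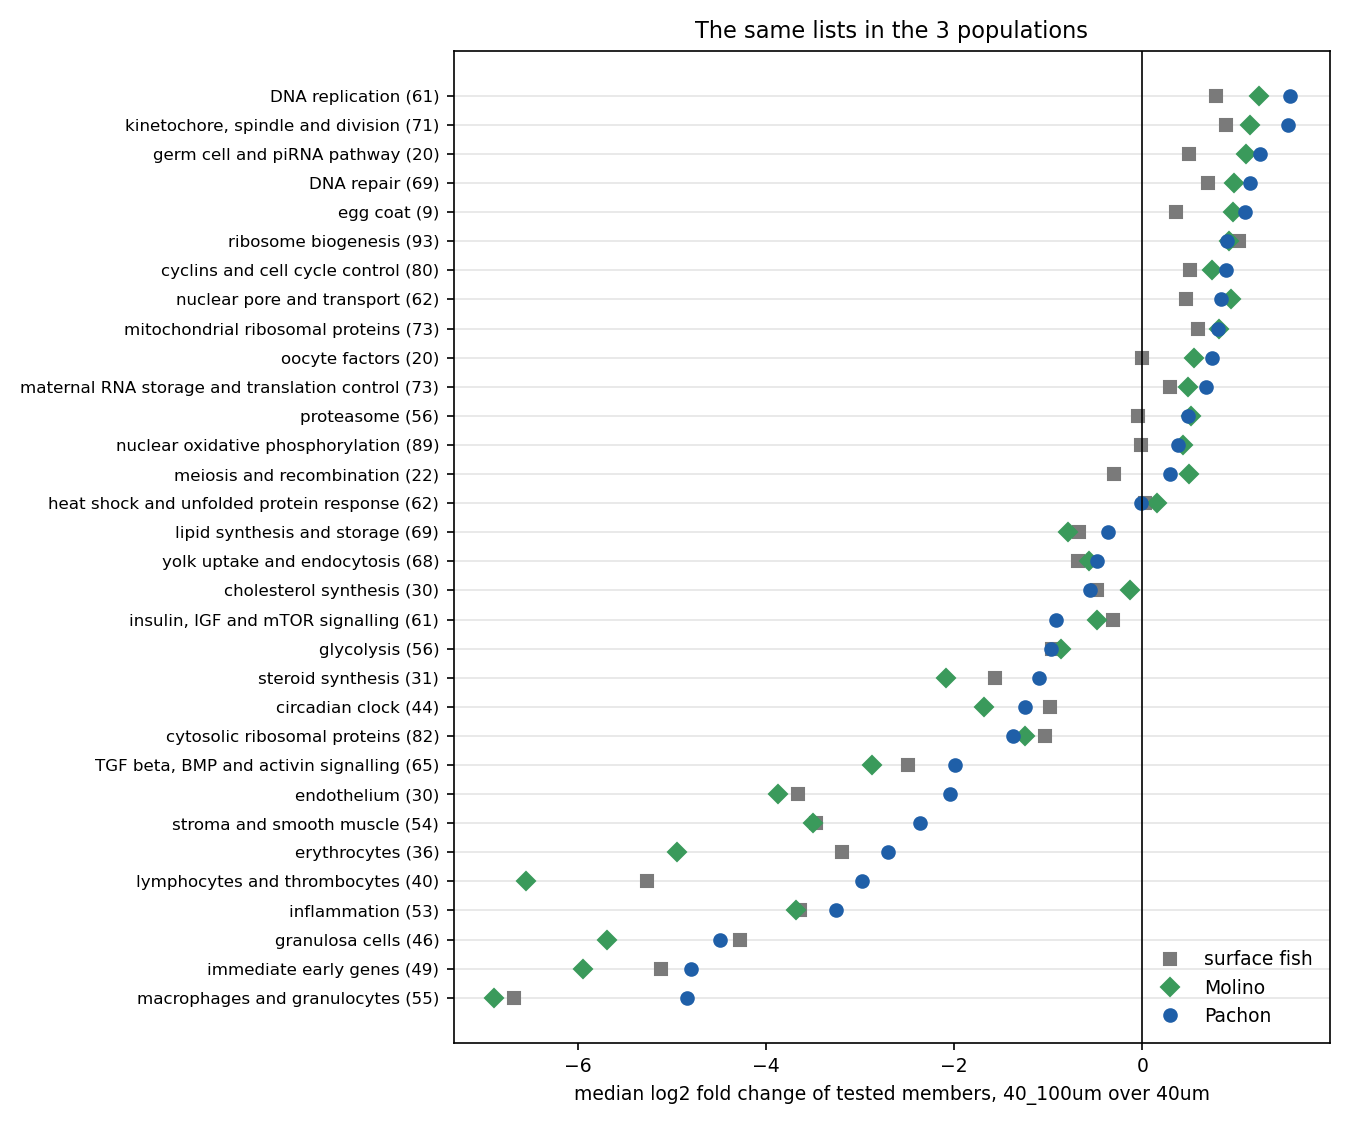
Median log2 fold change, 40_100um over 40um, of the tested members of each list (number in brackets) in Pachón (blue circles), surface fish (grey squares) and Molino (green diamonds). The order of the lists is much alike in the 3 populations. Among blood and immune lists the Pachón medians lie nearer to 0, for example -2.98 for lymphocytes and thrombocytes against -5.26 in surface fish and -6.55 in Molino. The same holds for other lists, such as endothelium (-2.05 against -3.66 and -3.87) and stroma and smooth muscle (-2.36 against -3.46 and -3.50). Differences between medians were not tested.

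Mitochondrial genes rose in part. Of 73 tested mitochondrial ribosomal protein genes 30 rose (41.1%) and none fell (median 0.81), with 47 higher without Pachón 40um replicate 1 and 18 without replicate 3. The gene mrps26 rose by 2.25 (SE 0.32, adjusted p = 6.37e-05) from 7.29, 6.58 and 5.04 CPM at 40um and 32.1, 32.8 and 25.4 CPM at 40_100um. No library of one size reached the other. Of 89 tested nuclear genes of oxidative phosphorylation 20 rose (22.5%), which was near the 22.7% of all genes, and 7 fell (7.87%; median 0.38). The count of 20 ranged from 6 without Pachón 40um replicate 3, or with the 6 Pachón libraries alone, to 49 without 40um replicate 1. It was 8 with DESeq2's size factors or without 40_100um replicate 1, 10 with the Wald test and 11 without 40um replicate 2. The complex III gene UQCR11 rose by 1.78 (adjusted p = 7.61e-05) and the complex IV gene cox6c by 1.14 (adjusted p = 0.00143), while the alternative complex IV form cox4i2 fell by -2.41 (adjusted p = 0.00126).

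Proteasome genes held calls in both directions, and their counts moved with single libraries. Of 56 tested genes 19 rose (33.9%) and 8 fell (14.3%; median 0.48), with 33 higher without Pachón 40um replicate 1, 1 lower without replicate 3, 5 lower without 40_100um replicate 1 and 4 lower with the 6 Pachón libraries alone. Of 23 tested genes of the regulatory cap 11 rose, 6 without Pachón 40_100um replicate 1 and 17 without 40um replicate 1, led by psmd10 (2.1 (adjusted p = 8.91e-05)) and psmd12 (1.47 (adjusted p = 0.000115)). In the core, 4 of 22 rose, 12 without Pachón 40um replicate 1, and 6 fell, 0 without 40um replicate 3. The gene psme2, of the activator that interferon induces, fell by -3.47 (SE 0.64, adjusted p = 0.000388) from 5.83, 17.7 and 31.2 CPM at 40um and 0.621, 1.66 and 2.61 CPM at 40_100um. Its groups did not overlap. Of 62 tested nuclear pore and transport genes 33 rose (53.2%) and 2 fell (median 0.83), with 22 higher without Pachón 40um replicate 3. The nuclear basket genes nup153 (2.17) and tprb (2.01) rose. The import receptor tnpo3 rose by 2.53 (SE 0.28, adjusted p = 2.38e-05) from 81, 81.9 and 58.2 CPM at 40um and 402, 478 and 399 CPM at 40_100um, and TNPO1 (-2.73 (adjusted p = 0.000108)) and kpna3 (-2.58 (adjusted p = 0.000356)) were the 2 that fell. Levels of tnpo3 were tight within each size.

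Of 68 tested yolk uptake and endocytosis genes 22 fell (32.4%), near the 30.1% of all genes, and 5 rose (median -0.48). The receptor family member vldlr, which takes up vitellogenin in egg-laying vertebrates, stood at 496, 285 and 171 CPM at 40um and 905, 867 and 757 CPM at 40_100um. Every larger-size library lay above every smaller one, a change of 1.41 (SE 0.38, adjusted p = 0.00537). The endocytic adaptor dab2 (1.32 (adjusted p = 0.00213)) and the lysosomal protease ctsc (1.48 (adjusted p = 0.000526)) rose. The scavenger receptor LRP1 fell by -4.98 (SE 0.71, adjusted p = 6.94e-05) from 699.6, 1821 and 1671 CPM at 40um and 36.7, 50.3 and 45.7 CPM at 40_100um, and the lysosomal membrane gene LAMP1 by -3.71 (adjusted p = 0.000163). For LRP1 the 40um libraries were more than an order of magnitude higher.

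Of 69 tested lipid synthesis and storage genes 26 fell (37.7%) and 11 rose (15.9%; median -0.36). The lipid droplet coat gene plin2 stood at 492, 1923 and 1899 CPM at 40um and 22.2, 36.2 and 17.3 CPM at 40_100um. Replicate 1 was the lowest 40um library and lay far above all larger-size libraries, a change of -5.83 (SE 0.98, adjusted p = 0.0002). The desaturase fads2 (-5.78 (adjusted p = 0.00102)) and the fatty acid activator acsl1a (-5.58 (adjusted p = 7.01e-05)) fell. Of 8 tested elongases, which lengthen fatty acids, 3 rose: ELOVL7 by 2.57 (SE 0.39, adjusted p = 0.000101) from 92.7, 89.7 and 44.1 CPM at 40um and 489, 406 and 454 CPM at 40_100um, elovl1a by 2.27 (adjusted p = 0.000252) and elovl6 by 2.06 (adjusted p = 0.00062). The droplet-forming gene fitm2 rose by 1.99 (adjusted p = 0.000319). Of 30 tested cholesterol synthesis genes 11 fell (36.7%) and 2 rose (median -0.56). The sterol sensor partner insig1 fell by -5.96 (SE 1.07, adjusted p = 0.00032) from 21.7, 227 and 198 CPM at 40um and 1.74, 4.31 and 1.16 CPM at 40_100um, the last enzyme of the pathway dhcr7 by -5.86 (adjusted p = 0.000208), and mvda rose by 1.55 (adjusted p = 0.000134). Replicate 1 was the lowest 40um library for insig1 by a wide margin.

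Of 56 tested glycolysis genes 23 fell (41.1%) and 7 rose (median -0.97), 4 without Pachón 40um replicate 3 or with the 6 Pachón libraries alone and 11 or 12 without surface 40um replicate 1 or 2. The kinase-phosphatase pfkfb3, which speeds up glycolysis, fell by -5.56 (SE 0.60, adjusted p = 2.38e-05) from 88.3, 436 and 332 CPM at 40um and 5.59, 8.63 and 3.92 CPM at 40_100um, and the glucose transporter SLC2A1 by -4.74 (adjusted p = 4.28e-05). The phosphofructokinase pfklb rose by 2.67 (SE 0.33, adjusted p = 3.09e-05) from 21.7, 16.5 and 10.7 CPM at 40um and 99.9, 109 and 103 CPM at 40_100um. The sizes did not overlap for pfkfb3 or pfklb. Of 61 tested insulin, IGF and mTOR genes 30 fell (49.2%) and 5 rose (median -0.92), 8 with the replicate block, with library totals, with all 36 libraries or without surface 40um replicate 1 or 2, and 3 with DESeq2's size factors or the 6 Pachón libraries alone. All 3 tested insulin receptor substrates fell, and irs2a stood at 1056, 2567 and 1516 CPM at 40um and 56, 48.1 and 19.5 CPM at 40_100um. Its 40um libraries lay far above the others, a change of -5.38 (SE 0.53, adjusted p = 2.13e-05). The transcription factor foxo1a fell by -5.24 (adjusted p = 0.000175), while foxo3a rose by 1.32 (adjusted p = 0.00184) and the mTOR inhibitor ddit4 by 2.85 (SE 0.32, adjusted p = 2.38e-05) from 47.3, 36.6 and 32.1 CPM at 40um and 277, 252 and 307 CPM at 40_100um. The sizes did not overlap for ddit4.

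Stress and clock genes held both directions. Of 62 tested heat shock and unfolded protein response genes 16 rose (25.8%) and 20 fell (32.3%), near the shares of all genes, and their median of -0.015 was 0.11 with library totals. The mitochondrial chaperone hspd1 rose by 1.96 (SE 0.24, adjusted p = 3.09e-05) from 76.4, 103 and 82.8 CPM at 40um and 286, 379.5 and 353 CPM at 40_100um, and the endoplasmic reticulum isomerase pdia4 by 2.49 (adjusted p = 0.000104). The transcription factor xbp1 fell by -5.03 (SE 0.89, adjusted p = 0.000283) from 447, 2036 and 1492 CPM at 40um and 25.1, 59.4 and 37.6 CPM at 40_100um, and ddit3, a stress factor that can lead to cell death, by -5.64 (adjusted p = 2.38e-05). Neither hspd1 nor xbp1 overlapped between sizes. Of 44 tested clock genes 24 fell (54.5%) and 6 rose (median -1.25). The repressors nr1d4b (-5.82 (adjusted p = 2.38e-05)) and bhlhe40 (-5.66 (adjusted p = 0.000339)) fell, and timeless (1.84 (adjusted p = 0.000511)), which also acts at replication forks, and cry4 (1.35 (adjusted p = 0.00571)) rose. The light-induced per2 stood at 37.7, 74.1 and 65.8 CPM at 40um and 37.9, 40.8 and 33.5 CPM at 40_100um, with a change of -0.66 (adjusted p = 0.292) that was not called. The pigment gene oca2, known for loss-of-function alleles in cave populations, stood at 66.2, 25.1 and 21.1 CPM at 40um and 52.7, 36 and 33.4 CPM at 40_100um, and its groups overlapped (0.11 (adjusted p = 0.868)).

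Among all genes with a symbol of their own, no overlap and a mean level of 2 or more in log2 CPM, the largest rise was that of hand2, a transcription factor of heart and limb development. It stood at 1.67, 1.65 and 0.629 CPM at 40um and 39.4, 65.4 and 48.8 CPM at 40_100um. The 40um libraries were near the level of a few reads and the 40_100um libraries well above, a change of 5.25 (SE 0.65, adjusted p = 3.09e-05). The polo-like kinase plk2b stood at 8.12, 4.94 and 10.7 CPM at 40um and 148, 174 and 264 CPM at 40_100um, a change of 4.61 (SE 0.45, adjusted p = 2.13e-05), and CEP152, a scaffold of centriole duplication, rose by 4.10 (adjusted p = 2.38e-05). The repressor her8.2 rose by 3.99 (adjusted p = 0.000112) and the creatine kinase ckmb by 3.82 (SE 0.55, adjusted p = 7.22e-05) from 49.3, 11.9 and 7.87 CPM at 40um and 458, 274 and 265 CPM at 40_100um. Several of the next genes act on chromosomes: ercc6l, a helicase of anaphase bridges (3.61 (adjusted p = 2.54e-05)), atad5b, of the family that unloads the sliding clamp (3.51 (adjusted p = 4.1e-05)), hells, a chromatin remodeller (3.44 (adjusted p = 2.38e-05)), and mad2l1bp, which silences the spindle checkpoint (3.43 (adjusted p = 3.09e-05)). The others among the 15 largest were sh3bp5b (3.66), selenoh (3.59) and dnaaf1 (3.41), beside cenpe, POLQ and pole.

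Among the largest falls under the same limits, the gene plekho1b stood at 18.7, 23.5 and 138 CPM at 40um and 0, 0 and 0.145 CPM at 40_100um, with 1 read in all at 40_100um, and was 1180-fold lower there (95% counting interval 211 to 46688). The chemokine ccl35.1 stood at 31.9, 44.9 and 190.4 CPM at 40um and 0.124, 0 and 0.436 CPM at 40_100um, a change of -8.72 (SE 1.15, adjusted p = 4.46e-05). The fitted change of plekho1b was -9.77, and -8.26 without Pachón 40um replicate 3. In both genes replicate 3 was the highest 40um library, and no 40_100um library came near the lowest of the 40um libraries. Chemokine receptors in this set were ccr9a, cxcr4b, cxcr3.3 (-7.09 (adjusted p = 0.000187)) and ackr4b (-6.77 (adjusted p = 0.000202)), and lgals3bp.2 (-7.63 (adjusted p = 5.02e-05)) and zgc:64051 (-7.05 (adjusted p = 0.000702)) also belonged to it. The macrophage glycoprotein GPNMB (-7.84 (adjusted p = 0.00184)), epdl1 (-7.15 (adjusted p = 0.00119)) and si:ch211-195b13.1 (-6.68 (adjusted p = 0.00126)) rested in size on Pachón 40um replicate 3, without which their changes were -4.20, -4.55 and -3.33.

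The authors' deposited normalised table places both sizes beside the 2 larger ones in Pachón, as a description without a test. In that table gdf9 stood at 8.79 ± 5.52 CPM (SD, n = 3) at 40um, 59.3 ± 8.11 at 40_100um, 39.1 ± 5.47 at 100_300um and 58.2 ± 3.89 at 300um. The gene ddx4 went from 176 ± 108 to 928 ± 34.4, 795 ± 99.7 and 673 ± 36.7 CPM in that table. Both genes thus had their lowest level at 40um and stayed well above it at the 3 larger sizes. By contrast zar1, in the authors' deposited table, stood at 2314 ± 1849, 2192 ± 474, 866 ± 163 and 913 ± 204 CPM, with the 2 larger sizes lowest. The gene hand2 rose from 1.52 ± 0.685 to 56.7 ± 12.4 and stood at 82.8 ± 12.7 and 85.1 ± 17.9 CPM there. The follicle gene fshr stood at 97.9 ± 32.5, 3.33 ± 0.365, 4.78 ± 2 and 5.35 ± 1.51 CPM, and nr4a2b at 174 ± 183, 0.544 ± 0.263, 1.16 ± 0.716 and 0.376 ± 0.24 CPM in the deposited table. For fshr and nr4a2b the 40um libraries stood alone, and the 3 larger sizes were close to each other on that scale.

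**Figure D4:**
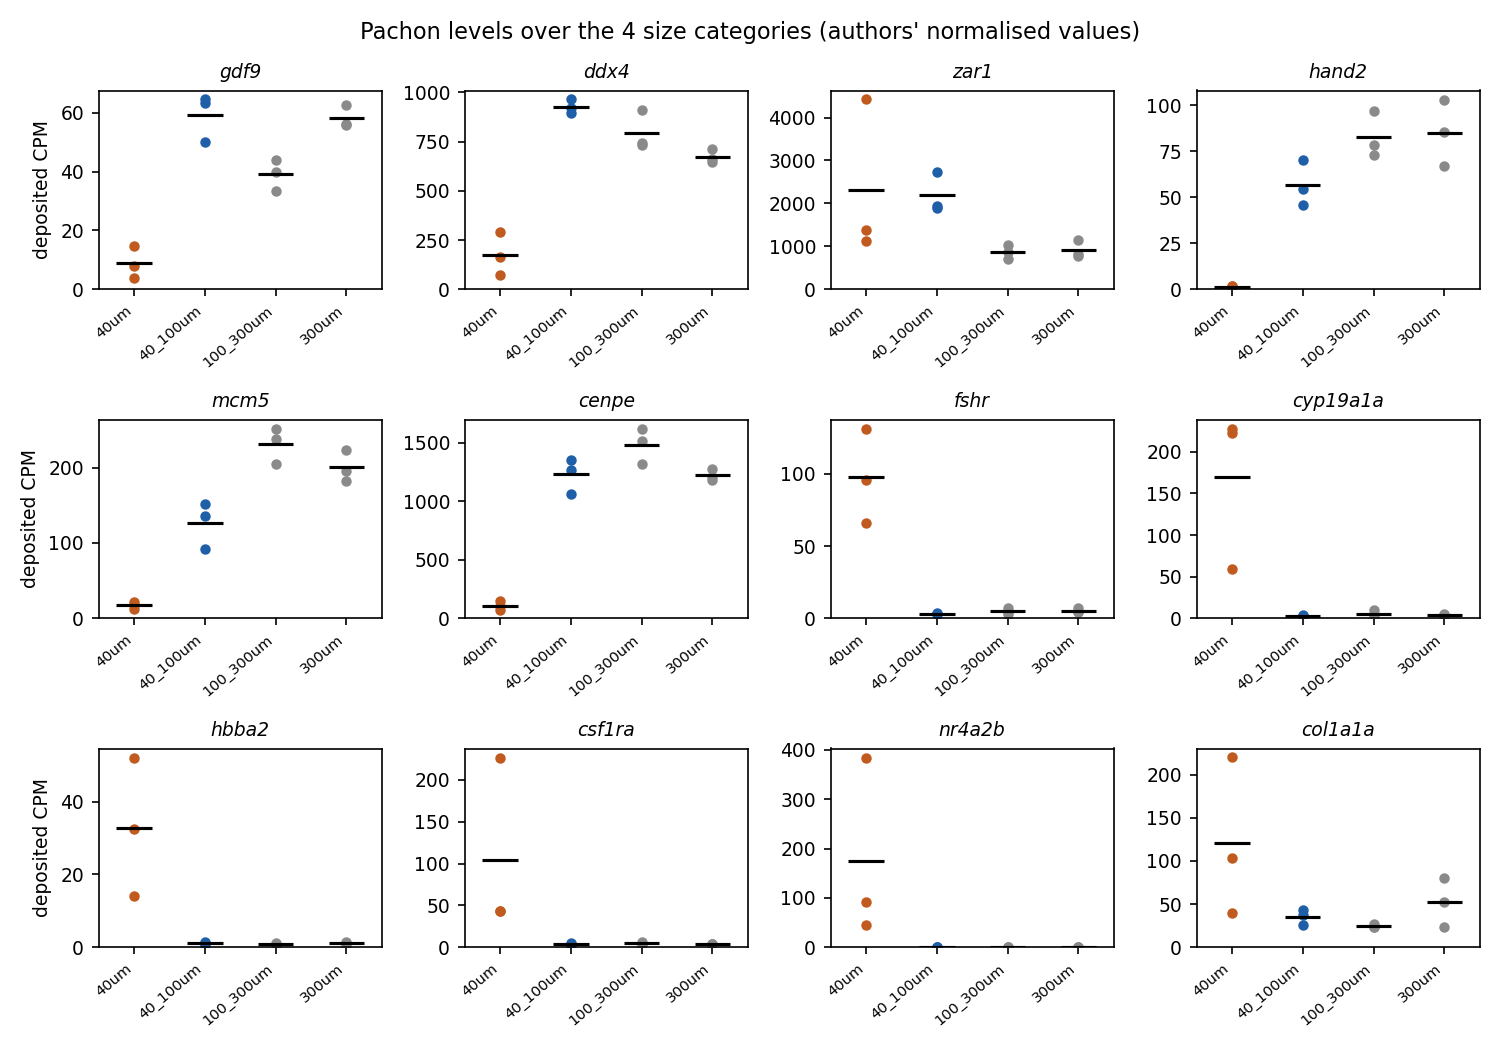
Levels of 12 genes in Pachón over the 4 size categories in the authors' deposited normalised CPM, 1 point per library, a line at the mean of 3, and an axis from 0 in each panel. From 40um to 40_100um gdf9, ddx4, hand2, mcm5 and cenpe step up and fshr, cyp19a1a, hbba2, csf1ra and nr4a2b step down, and for these 10 genes the 2 larger sizes (grey) stay nearer to 40_100um than to 40um.

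The same step was tested in surface fish and Molino, and the difference between steps was tested for each gene. The Pachón step differed from the surface fish step in 299 genes (1.7%), 123 with a higher (0.701%) and 176 with a lower value (1%) in Pachón, and from the Molino step in 296 genes (1.69%), 215 higher (1.23%) and 81 lower (0.462%). With the replicate block these counts were 617 and 697. With library totals the surface split was 127 higher and 127 lower and the Molino split 339 and 64. The surface split was 169 higher and 130 lower without surface 40um replicate 1, and also had at least as many higher without Pachón 40_100um replicate 1 (44 and 42) or Pachón 40um replicate 3 (69 and 68). The median difference of all tested genes was 0.21 and 0.24. In 87 genes the step differed from both, 44 above both and 43 below both. Both differences use the same 6 Pachón libraries, so the 2 calls of a gene are not independent. The counts rested on single libraries. Against surface fish the count moved by over 1.5 times without any 1 of 14 of the 18 libraries, that is, all but surface 40um replicate 1, Molino 40_100um replicate 3 and Molino 40um replicates 1 and 3, from 78 without Pachón 40um replicate 2 to 658 without Pachón 40um replicate 1. Against Molino it did so without any 1 of 11 libraries, all 6 of Pachón, the 3 of Molino at 40_100um, Molino 40um replicate 2 and surface 40um replicate 2, from 105 without Molino 40_100um replicate 2 to 586 without surface 40um replicate 2.

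Several genes that were not called in Pachón fell in both other populations. The tryptophan-pathway enzyme kmo stood in Pachón at 5.41, 4.94 and 8.5 CPM at 40um and 14.5, 9.95 and 8.86 CPM at 40_100um. In surface fish it stood at 2.14, 18.5 and 8.62 CPM at 40um and 0, 0.113 and 0 CPM at 40_100um, and in Molino at 7.86, 14.1 and 9.79 and 0, 0.144 and 0.489 CPM. At 40_100um every Pachón library lay far above the 6 libraries of the other populations. The Pachón step exceeded the surface step by 8.08 (SE 1.21, adjusted p = 0.00479) and the Molino step by 6.24 (SE 1.06, adjusted p = 0.00802). With 1 read at 40_100um, kmo was 192-fold lower there in surface fish (95% counting interval 34.0 to 7651).

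The myristoyl transferase nmt1b and the leukocyte actin regulator coro1a showed the same pattern. In Pachón nmt1b stood at 6.04, 4.94 and 3.46 CPM at 40um and 4.85, 4.31 and 2.47 CPM at 40_100um, and in surface fish it had no read at 40_100um against 4.01, 4.43 and 9.8 CPM at 40um, at least 47.9-fold lower with 3 counts set over the group. In Molino nmt1b stood at 21.5, 14.1 and 9.5 and 0.322, 0.575 and 0.367 CPM. The 40_100um libraries of Pachón lay above all 6 others of that size. The difference was 7.87 (SE 1.02, adjusted p = 0.00354) from surface fish, a fitted value that depends on the prior count, and 4.77 (SE 0.74, adjusted p = 0.00758) from Molino. The gene coro1a stood in Pachón at 46.2, 34.6 and 109 CPM at 40um and 51.8, 61.2 and 40.1 CPM at 40_100um, in surface fish at 41.9, 461 and 44.8 and 1.52, 4.29 and 0.874 CPM, and in Molino at 87.5, 157 and 81.2 and 0.483, 1.29 and 0.733 CPM. Its Pachón sizes overlapped, while those of the others did not. The Pachón step exceeded that of surface fish by 6.00 (SE 1.15, adjusted p = 0.0163), which was 3.93 and still past the threshold without surface 40um replicate 2 and not past the threshold without Pachón 40um replicate 2 (adjusted p = 0.0576), and that of Molino by 6.67 (SE 1.22, adjusted p = 0.0121).

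The kinase gene DAPK2, with 8.54, 11.5 and 12 CPM at 40um and 9.94, 7.8 and 13.4 CPM at 40_100um in Pachón, belonged to the same set. It stood at 3.14, 19.3 and 21.6 and 0.161, 0 and 0.122 CPM in Molino, where 2 reads at 40_100um made it 139-fold lower (95% counting interval 37.8 to 1154). The difference from Molino was 6.96 (SE 1.2, adjusted p = 0.00843), and that from surface fish 4.43 (SE 0.97, adjusted p = 0.0314), the latter lost without any 1 of 7 libraries, all 3 of Pachón at 40_100um, replicates 2 and 3 of Pachón at 40um and of surface fish at 40_100um (adjusted p up to 0.0887). Against Molino alone, nab1a, a repressor of EGR factors, stood in Pachón at 101, 58.8 and 40.6 CPM at 40um and 92.2, 72.2 and 71.4 CPM at 40_100um and went from 38.7 ± 13.2 to 0.339 ± 0.455 CPM (SD, n = 3) in Molino. The Pachón sizes overlapped and the Molino sizes did not, a difference of 6.88 (SE 0.85, adjusted p = 0.00107). The gene lzts2a had no read at 40_100um in Molino, at least 42.5-fold lower than at 40um, against a change of -0.37 (adjusted p = 0.532) in Pachón, and the steps differed by 7.88 (SE 1.05, adjusted p = 0.00295), a fitted value that depends on the prior count.

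**Figure D5:**
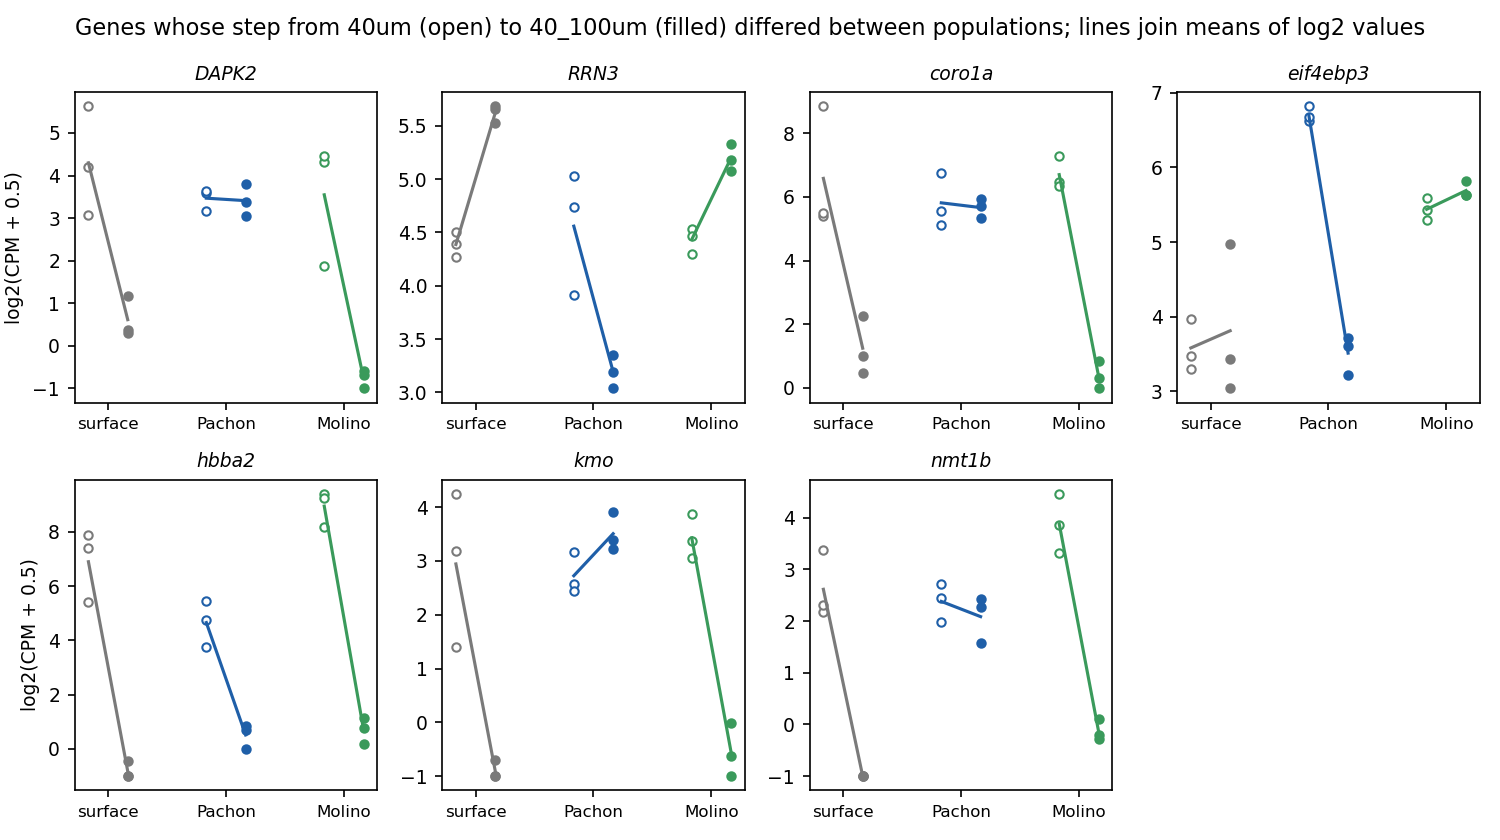
Levels as log2(CPM + 0.5) of 7 genes in surface fish (grey), Pachón (blue) and Molino (green), open circles for 40um and filled circles for 40_100um, 1 per library, with lines between the means of the log2 values. The lines of kmo, nmt1b, coro1a and DAPK2 run down in surface fish and Molino and not steeply in Pachón, and those of eif4ebp3 and RRN3 run down in Pachón.

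Other genes had a lower step in Pachón than in both other populations. The translation repressor eif4ebp3 stood in Pachón at 97.7, 112 and 102 CPM at 40um and 11.7, 8.79 and 12.6 CPM at 40_100um. In surface fish it stood at 9.36, 10.6 and 15.2 and 30.8, 10.3 and 7.72 CPM, and in Molino at 42.8, 47.5 and 38.9 and 55.7, 48.9 and 49.1 CPM. Pachón had the highest levels of the 3 populations at 40um and no overlap between its sizes. The Pachón step was -3.23 (SE 0.41, adjusted p = 3.7e-05). Pachón minus surface fish was -3.71 (SE 0.56, adjusted p = 0.00479) and Pachón minus Molino -3.48 (SE 0.55, adjusted p = 0.00582). The RNA polymerase I factor RRN3 stood in Pachón at 14.6, 32.1 and 26.1 CPM at 40um and 7.71, 8.63 and 9.73 CPM at 40_100um, in surface fish at 22.2, 20.4 and 18.8 and 45.5, 49.9 and 50.8 CPM, and in Molino at 19.2, 22.7 and 21.6 and 39.8, 33.3 and 35.8 CPM. It fell in Pachón and rose in the other 2 (surface adjusted p = 0.00105, Molino adjusted p = 0.0195). The differences were -2.72 (SE 0.38, adjusted p = 0.00354) and -2.25 (SE 0.37, adjusted p = 0.00758).

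Further differences lay in signalling, chaperone and actin genes. Compared with Molino, the step was lower in Pachón for the receptor phosphatase PTPRM by -3.82 (SE 0.57, adjusted p = 0.00415), the chaperone hsp90aa1.2 by -4.21 (SE 0.71, adjusted p = 0.00762), the phospholipase plcd3a by -3.59 (SE 0.61, adjusted p = 0.00762) and the growth factor receptor met by -3.90 (SE 0.74, adjusted p = 0.015). In Pachón PTPRM, 1 of 2 genes of that symbol, stood at 117, 286 and 263 CPM at 40um and 7.95, 7.13 and 10.2 CPM at 40_100um, and in Molino at 61.3 ± 17.4 and 32.9 ± 10.2 CPM. At 40um the lowest Pachón library lay above the Molino mean, and at 40_100um the highest Pachón library lay below it. Compared with surface fish, the step was lower for the insulin receptor substrate irs2a by -3.55 (SE 0.64, adjusted p = 0.012) and for the actin nucleator cobl by -4.05 (SE 0.69, adjusted p = 0.00911). In surface fish irs2a stood at 158 ± 79.1 CPM at 40um and 44.6 ± 2.43 at 40_100um (SD, n = 3). Its surface and Pachón levels were close at 40_100um and far apart at 40um.

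The difference in a haemoglobin gene depended on single libraries. The haemoglobin gene hbba2 fell less in Pachón than in surface fish, with a difference of 5.70 (SE 1.24, adjusted p = 0.0302). Its level at 40um was 26.2, 13.2 and 43.4 CPM in Pachón and 41.7, 169 and 238 CPM in surface fish, where 2 reads remained at 40_100um. That call was lost without any 1 of 7 libraries, the 3 of surface fish at 40_100um, its 40um replicate 3, Pachón 40um replicate 2 and Pachón 40_100um replicates 1 and 3 (adjusted p up to 0.0877). Over the lists, the step of at most 4 members differed from surface fish. These were 4 of 55 macrophage and granulocyte genes (7.27%) and 4 of 61 insulin, IGF and mTOR genes (6.56%), against 1.7% of all genes. The shares were larger for cholesterol synthesis, 3 of 30 genes (10%), and erythrocytes, 3 of 36 genes (8.33%). From Molino the step differed for at most 4 members, 4 of 36 erythrocyte genes (11.1%), against 1.69% of all genes.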

How the data were processed

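RNA sequencing counts of 18 libraries, 3 per population at 40um and at 40_100um, were analysed, with 2992119 to 8720879 reads assigned to genes per Pachón library. Trizol and a column kit gave the RNA, per the labels' protocols; rRNA was depleted with a kit made for human, mouse and rat RNA, and directional libraries were made from varying input with varying PCR cycles. The tools named in the submitters' processing notes are STAR 2.7.10b and RSEM. Neither the build nor the strand setting is given in the sources used here. The authors deposited raw counts per gene, with summary rows kept out of library sizes and tests (in Pachón, 15.1 to 34.9% of reads in no feature, 8.61 to 29.5% multimapping, 7.30 to 12.6% unmapped and 0.117 to 0.449% ambiguous), and a normalised signal table in CPM whose normalisation is not given. Without a known strand setting, overlapping and antisense genes are uncertain, as are near-identical copies.

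From the counts, edgeR 4.0.16 (R 4.3.3) fitted 1 mean per group with TMM scaling, after filterByExpr (minimum count 10, minimum total 15), leaving 17539 of 27420 genes, with 12 residual degrees of freedom. Contrasts were tested with the quasi-likelihood F test and Benjamini-Hochberg adjustment over all tested genes, threshold 0.05. The test was also run on simulated data in which few genes changed, equally in both directions. In the data 52.8% of genes were called, so that run cannot show how scaling and calls behave under so broad a change. Figures were drawn with Python 3.11.15. Counting intervals are exact 95% intervals, floors are 3 counts over a group, and both cover counting error only.

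Members and the 32 lists were chosen with earlier results of these data known; list members and families were matched by symbol only, and the families and the closing pairs were chosen after their values were seen. Genes were named by rule: the 15 largest rises and falls among called genes with a unique symbol, no overlap and 2 or more as mean log2 CPM, up to 4 such members of each list each way, fixed anchors, and the 8 largest differences between steps each way. Values of some genes chosen by it are not reported here. The anchor alas2 matched no symbol in the table. Genes named outside this rule were chosen after their values were seen. Alternatives were DESeq2's size factors, the Wald test of DESeq2 1.42.0, library totals, no filter and leaving out the 50 most abundant genes. Others were the 6 Pachón libraries alone, all 36 libraries, a replicate block and each library left out. The setting named DESeq2's size factors used that scaling method (relative log expression) as edgeR computes it, with edgeR's test. Replicate numbers come from the sample titles. Deviations of same-numbered Pachón libraries from their group means correlated across genes at 0.317, 0.243 and 0.245. Those of surface fish gave 0.317, 0.277 and 0.254. Those of Molino gave 0.286, 0.0968 and 0.324, so that 1 Molino pair lay below 0.1. Libraries with different numbers gave -0.195 to -0.0379 in Pachón, -0.255 to -0.0646 in surface fish and -0.318 to 0.0702 in Molino. Deviations cancel within a group, so positive values for same-numbered libraries bring negative ones for others. The main fit ignored the numbers, and only the replicate block used them as pairs. With the block 4316 genes rose and 5520 fell in Pachón, against 3980 and 5287 without it. The common dispersion was 0.0938 with the block and 0.172 without it. Standard errors and adjusted p-values refer to the fit without the block unless another setting is named. The fit did not give the standard errors directly. Each is the size of the log2 value divided by the square root of its quasi-likelihood F, and the log2 value carries a prior count. Where a group had no read, as for nmt1b in surface fish and lzts2a in Molino, the SE therefore depends on the prior count. It is not a standard error of the change there.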

Additional observations from a re-analysis of the deposited data

Results flagged for a closer look

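Each result below was singled out because the 40um to 40_100um step differed between Pachón and another population in edgeR's quasi-likelihood test of the difference itself (adjusted p under 0.05 over all tested genes). Values are Pachón step minus the other step, on the log2 scale. Against surface fish, the Pachón step was higher for kmo (8.08), nmt1b (7.87), myb (6.54), cacng8a (6.29), grna (6.23), rgl2 (6.05), coro1a (6.00), hbba2 (5.70), HBE1 (4.71), DAPK2 (4.43) and her8.2 (3.46). It was lower for TLCD3B (-5.24), tlr18 (-5.19), zgc:163061 (-5.10), SYT14 (-4.25), rasgef1bb (-4.11), cobl (-4.05), MAP3K13 (-4.0), eif4ebp3 (-3.71), irs2a (-3.55), tm7sf2 (-2.81) and RRN3 (-2.72). Against Molino, the Pachón step was higher for syk (8.95), slco1c1 (8.62), nt5c2l1 (8.53), EMILIN2 (7.91), lzts2a (7.88), serping1 (7.41), DAPK2 (6.96), nab1a (6.88), coro1a (6.67), kmo (6.24), nmt1b (4.77), plk2b (2.44), ctsc (2.07) and tdrd3 (2.06). It was lower for AADAC (-5.71), kcnn1b (-4.78), zgc:114041 (-4.29), hsp90aa1.2 (-4.21), met (-3.90), PTPRM (-3.81), plcd3a (-3.59), eif4ebp3 (-3.48), dab1a (-3.11), RPL22 (-2.86) and RRN3 (-2.25). With each of the 18 libraries left out in turn, the call was lost 15 times for cacng8a and rgl2, 13 times for her8.2 and MAP3K13, 12 times for plk2b and syk, 10 times for rasgef1bb, 9 times for tm7sf2, 8 times for zgc:114041 and zgc:163061, 7 times for DAPK2 (against surface fish), hbba2, HBE1 and serping1, 6 times for AADAC, grna and kcnn1b, 5 times for dab1a and TLCD3B, 4 times for SYT14, tdrd3 and tlr18, and once for coro1a (against surface fish) and nt5c2l1. The other calls named above held in all 18. The HBE1 gene is 1 of 5 copies of that name that can share reads. In Molino nt5c2l1 had no read at 40_100um and was at least 3579-fold lower than at 40um, and slco1c1 and lzts2a were at least 58.5-fold and 42.5-fold lower. Fitted differences of genes with 0 to 3 reads in a group depend on the prior count.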

How the results depend on the processing

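The counts of genes that rose and fell in Pachón stayed within 1.5 times of 3980 and 5287 under every alternative run. The counts of genes whose step differed from that of surface fish (299) or Molino (296) became 1301 and 1125 with all 36 libraries, 617 and 697 with the replicate block, and 784 and 823 with DESeq2's Wald test, and ranged from 78 to 658 and from 105 to 586 with 1 library left out; the causes were not tested. Among single genes, each of which was not called, the sign of the Pachón change turned as follows. For zar1 it was -0.22 with DESeq2's size factors, -0.22 with its Wald test, -0.072 with the 6 Pachón libraries alone, -0.078 with all 36 libraries, and -0.32 to 0.87 with 1 library left out. For npm2b it was 0.17 with the replicate block and -0.52 to 0.91 with 1 library left out, for oca2 -0.13 with DESeq2's size factors, -0.13 with its Wald test and -0.17 to 0.88, for slco1c1 0.063 with library totals, 0.011 without the filter and -0.26 to 0.26, for DAPK2 0.11, 0.081 and -0.25 to 0.20 under the same settings, and for nab1a -0.013 with DESeq2's size factors, -0.013 with its Wald test and -0.021 to 0.72. With 1 library left out, zp2l1 ranged from -0.76 to 0.46, sycp3 from -1.80 to 1.1 and coro1a from -0.54 to 0.34. Of 6781 values of named genes under alternatives 6656 kept their direction and side of the threshold, as did 1000 of 1198 values of differences between steps. Of 1664 list counts 1583 stayed within 1.5 times. Apart from the fixed anchors, these genes were named because they passed a test, so much of this agreement was set in advance. Fits without a surface fish or Molino library also kept all Pachón libraries. These shares therefore do not measure how stable the calls of other genes are. Of the named genes, the replicate block called the Pachón change of kdrl, cacng8a (adjusted p = 0.0277) and syk (adjusted p = 0.0487), which the test without it did not. The differences between steps flagged above for cacng8a and syk were called with and without the block. The 40um libraries held 2992119 to 4794307 assigned reads, so genes near 1 CPM rest on few reads.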

Other observations

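Pairs of genes whose symbols differ only in a final a or b were described after their values were seen and without a test. Such endings often mark copies from the fish genome duplication, but not in every pair, and top2a and top2b below are an exception. Of 923 pairs with both members tested, both members passed in 306, of which 71 were both higher at 40_100um, 150 both lower and 85 opposite in sign. In 424 pairs 1 member passed and in 193 neither did. Against 22.7% of all genes higher and 30.1% lower, nothing particular to the pairs is read from these counts.

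Several opposite pairs hold well-known genes. The replication topoisomerase top2a rose by 2.13 while top2b fell, with a change of -4.27, and foxo3a rose by 1.32 while foxo3b fell, with a change of -5.06. The redox regulator txnipb rose by 2.32, whereas txnipa fell, with a change of -5.18 and stood at 1145, 4685 and 2700.1 CPM at 40um and 52.1, 133 and 50.2 CPM at 40_100um. The collagen-processing gene pcolceb rose by 2.84 and pcolcea fell, with a change of -5.40, and the chaperone gene dnajb1a rose by 1.70 while dnajb1b fell, with a change of -4.20. In these 5 pairs neither member overlapped between the sizes.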
